A study of Mus musculus with 10 samples.

Results

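The genes that build fatty acids from carbohydrate were followed in visceral white adipose tissue (WAT) of mice as a set of 10 genes of the 47937 listed in the count files. The set was chosen by name. It held the enzymes Acly, Me1, Acaca, Acacb, Fasn, Elovl6, Scd1 and Scd2, and the transcription factors Srebf1, which encodes SREBP1, and Mlxipl, which encodes ChREBP. All 10 symbols were found by Ensembl identifier, and all 10 passed the filter on low counts in each of the 5 comparisons below. WAT messenger RNA of C57BL/6 mice had been sequenced in 10 libraries. The mice were wild type (Mof+/+) or heterozygous for Mof (Mof+/-), the gene (also called Kat8) of a histone acetyltransferase. The Mof+/- state is not restricted to adipocytes. On standard diet (SD), 3 Mof+/+ and 3 Mof+/- samples came from mice 8 weeks old. On high-fat diet (HFD), 2 Mof+/+ and 2 Mof+/- samples came from mice 27 weeks old after 20 weeks of HFD by the series description, while the study's text gives a longer time on HFD. Diet therefore cannot be told apart from age in any comparison of HFD with SD. The labels call the samples of a group biological replicates.

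Acetyl-CoA for fatty acid synthesis leaves the mitochondrion as citrate, which ATP citrate lyase (Acly) splits in the cytosol, while malic enzyme (Me1) supplies NADPH. Acetyl-CoA carboxylase makes malonyl-CoA, which fatty acid synthase (Fasn) builds into palmitate. Elovl6 lengthens that chain and the stearoyl-CoA desaturases Scd1 and Scd2 put in the double bond. SREBP1 answers to insulin and ChREBP to glucose metabolites. In fat, ChREBP has a long form and a shorter, more active form made from a separate start site within the same gene. The carboxylase has a cytosolic form, Acaca, and a form at the mitochondrial surface, Acacb, whose malonyl-CoA holds back the entry of fatty acids into mitochondria.

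Start sites of 8 of the 10 genes were matched in the RefSeq promoter table (GRCm38.p6, the build of the files), with 12 start sites in all. The 250 bases before each were searched on both strands for an E-box (CACGTG, a core that ChREBP and related factors bind), a sterol regulatory element (SRE, TCACNCCAC, bound by SREBP), a CCAAT box (CCAAT) and a GC box (GGGCGG). Windows are shown for both starts of Mlxipl, which held the E-box and the SRE, for Fasn and Acacb, whose counts are central below, and for Acly, which held the most GC boxes. They run 5′ to 3′ on the strand of the gene, and the capitals mark the motifs.
Mlxipl, upstream start, chr5:135089640-135089889, plus strand: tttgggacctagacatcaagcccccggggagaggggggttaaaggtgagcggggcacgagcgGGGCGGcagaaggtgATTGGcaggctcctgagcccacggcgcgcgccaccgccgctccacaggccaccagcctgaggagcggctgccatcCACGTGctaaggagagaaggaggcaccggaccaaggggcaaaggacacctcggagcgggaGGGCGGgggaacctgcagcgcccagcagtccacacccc
Mlxipl, downstream start, chr5:135106641-135106890, plus strand: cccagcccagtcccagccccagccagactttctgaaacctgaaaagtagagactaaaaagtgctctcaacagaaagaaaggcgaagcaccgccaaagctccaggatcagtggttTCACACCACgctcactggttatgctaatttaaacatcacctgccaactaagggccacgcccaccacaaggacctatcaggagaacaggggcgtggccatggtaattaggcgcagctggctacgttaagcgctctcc
Fasn, chr11:120824548-120824797, minus strand: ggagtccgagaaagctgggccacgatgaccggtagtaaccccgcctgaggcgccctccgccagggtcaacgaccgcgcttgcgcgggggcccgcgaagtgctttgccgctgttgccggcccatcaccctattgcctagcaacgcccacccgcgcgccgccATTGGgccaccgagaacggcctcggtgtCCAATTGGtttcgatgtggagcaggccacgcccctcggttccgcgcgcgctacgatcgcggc
Acacb, chr5:114165268-114165517, plus strand: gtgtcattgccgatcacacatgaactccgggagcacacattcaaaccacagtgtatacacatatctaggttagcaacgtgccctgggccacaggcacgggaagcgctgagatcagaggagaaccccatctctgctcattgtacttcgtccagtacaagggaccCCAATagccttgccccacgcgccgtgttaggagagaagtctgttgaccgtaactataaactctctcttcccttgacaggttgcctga
Acly, chr11:100528001-100528250, minus strand: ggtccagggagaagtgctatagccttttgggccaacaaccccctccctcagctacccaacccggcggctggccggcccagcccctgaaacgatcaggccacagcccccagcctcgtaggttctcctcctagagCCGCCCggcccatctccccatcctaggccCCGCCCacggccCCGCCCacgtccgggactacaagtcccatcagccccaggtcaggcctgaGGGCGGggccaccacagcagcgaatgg

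The E-box letters were found in 1 of the 12 windows, that of the upstream Mlxipl start, at position -98 counted back from the start site. Of all 32851 windows in the table, 6.02% held them. The SRE letters were also found in 1 window, that of the downstream Mlxipl start, at -136, against 1.05% of all windows. A CCAAT box lay in 6 windows of 5 genes, against 33.9% of all windows. Fasn held 3 of them, at -90, -62 and -59, the last 2 sharing bases on opposite strands, and Acacb held 1 at -87. GC boxes lay in 5 windows of 4 genes, against 32.7% of all windows, with 4 of them in the Acly window. The windows of Acly, Fasn and the upstream Mlxipl start lay outside the gene in GENCODE M21. The Acacb window lay inside the annotated gene, with 9 of its bases in an exon, and that of the downstream Mlxipl start lay in an intron. The Mlxipl starts were 17.0 kb apart, those of Srebf1 spanned 12.1 kb and those of Me1 8.6 kb. The counts sum over the starts of a gene, so the forms of ChREBP or SREBP1 cannot be read from them.

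Total counts ranged from 1044355 to 17171947 per library, the lowest in HFD Mof+/- replicate 1 and the next lowest, 5531786, in HFD Mof+/- replicate 2. Adipocyte markers were detected in full in every library (9 of 9 genes). Levels of Kat8 were 20.4 to 21.5 CPM (counts scaled to the library total) in SD Mof+/+ and 11.5 to 18.8 CPM in SD Mof+/-. On HFD they were 18.1 and 19.2 CPM in Mof+/+ and 20.1 and 10.5 CPM in Mof+/-, the first of these from 21 counts. No comparison called Kat8 (on SD its log2 fold change was -0.22, SE 0.35, adjusted p = 0.736 by edgeR's quasi-likelihood test). All 3 SD Mof+/- libraries held Xist (46.1 to 139 CPM) and no counts of the Y-linked genes Ddx3y, Eif2s3y, Kdm5d and Uty. In the other 7 libraries Xist was at 0 and Y-linked genes were detected. The study's methods for WAT RNA describe male mice. On SD, genotype thus cannot be told apart from sex, and this extends to the comparison of diets in Mof+/- and to the interaction. The data columns of SD Mof+/+ replicate 3 and SD Mof+/- replicate 3 carry headings that name the opposite genotype, while their sex-linked genes go with their sample labels. The sample labels were followed, and values grouped by heading are given where a call or a separation of groups is lost.

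Both HFD Mof+/- libraries held skeletal muscle markers (10 of 10 detected), and replicate 1 stood apart. Its 10 skeletal muscle markers summed to 63211 CPM, or 6.32% of its counts, against 1644 CPM in HFD Mof+/- replicate 2 and 9.58 to 89.5 CPM in the other 8 libraries. Mitochondrially encoded genes took 26.9% of its counts, against 1.79% to 8.82% elsewhere. The relation of level to exonic length also moved with the groups. Across genes, Spearman's rho between length and level was 0.30 to 0.369 in SD Mof+/+, 0.109, -0.183 and -0.363 in SD Mof+/-, and -0.196 to 0.054 on HFD. The 10 lipogenesis genes are 3848 to 17074 exonic bases long. Adipocyte markers summed to 30150 to 37824 CPM in SD Mof+/+, 46829 to 69837 CPM in SD Mof+/-, 24758 and 28235 CPM in HFD Mof+/+, and 15688 and 43227 CPM in HFD Mof+/-. Endothelial markers (6 of 6 genes detected in every library) summed to 914 to 2183 CPM in SD Mof+/+ and 168 to 451 CPM in the other 7 libraries. Mesothelial markers (5 genes) summed to 22.5 to 59.1 CPM in SD Mof+/+ and 151 to 319 CPM in SD Mof+/-. Single libraries were high in myelin markers (1040 CPM in SD Mof+/+ replicate 2), lymphocyte markers (316 CPM in SD Mof+/+ replicate 3) and hepatocyte markers (448 CPM in SD Mof+/- replicate 2). The part of these values in the results was not tested beyond the alternatives given below.

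**Figure D1:**
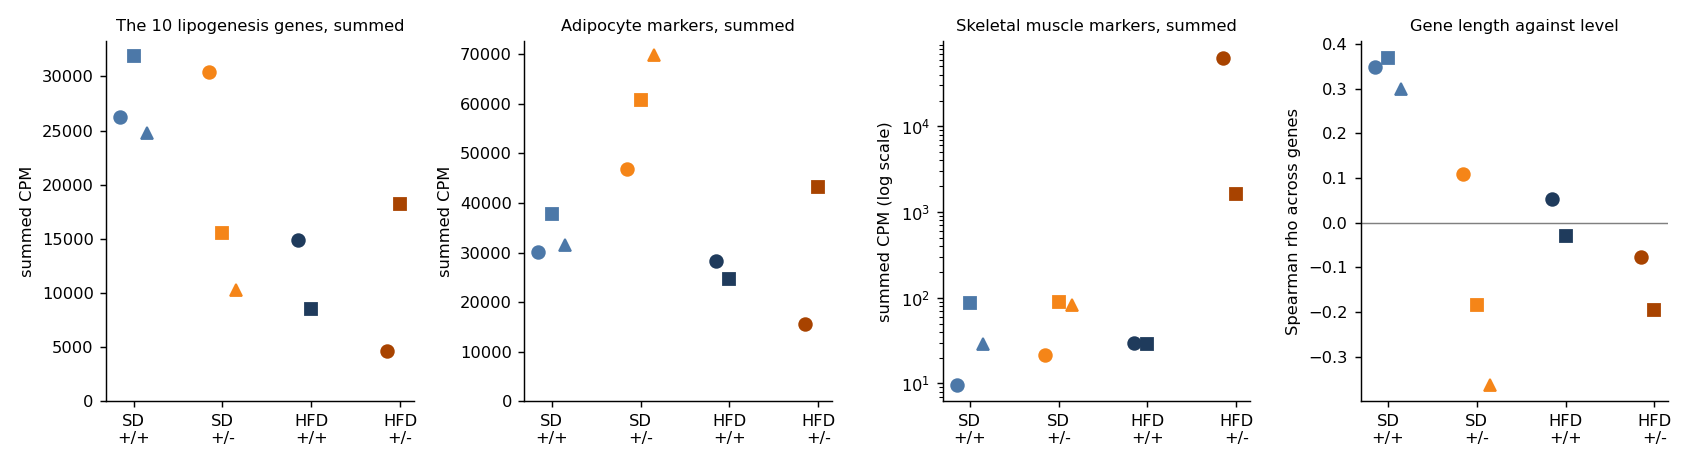
Each point is a library, by genotype and diet (circle, square and triangle for replicates 1, 2 and 3), for the summed CPM of the 10 lipogenesis genes, the summed CPM of adipocyte markers, the summed CPM of skeletal muscle markers on a log axis, and the Spearman correlation across genes of exonic length with level. Muscle markers reach 63211 CPM in HFD Mof+/- replicate 1, and the length correlation is above 0.3 in no library outside SD Mof+/+.

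Together the 10 genes took 2.47% to 3.19% of all counts in SD Mof+/+. They took 3.04%, 1.56% and 1.03% in SD Mof+/-, 1.49% and 0.852% in HFD Mof+/+, and 0.466% and 1.83% in HFD Mof+/-. SD Mof+/- replicate 1 lay within the SD Mof+/+ range and the other 6 libraries lay below it. In bulk tissue, fewer cells of a type and less RNA per cell cannot be told apart.

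Levels per exonic length, in TPM (counts over exonic length, scaled to a fixed sum), ranked the members in SD Mof+/+ as follows (mean ± SD, n = 3). Scd1 stood first at 9611 ± 1576 TPM and Fasn second at 1743 ± 482 TPM. Acly followed at 626 ± 72.1 TPM and Me1 at 447 ± 70.5 TPM, and the values of these top 4 genes did not overlap. Srebf1 reached 299 ± 96.6 TPM and Scd2 285 ± 88.7 TPM, which did not differ beyond their spread, and the highest Scd2 value lay just above the lowest of Me1. Acaca at 125 ± 32.3 TPM, Mlxipl at 86.0 ± 47.0 TPM and Acacb at 75.2 ± 17.5 TPM overlapped as well, and Elovl6 had the lowest mean, 45.0 ± 11.9 TPM, overlapping with Mlxipl but not with Acacb. Scd1 took 67.7% to 76.4% of the members' summed TPM in SD Mof+/+ and 79.0% to 92.2% in the other 7 libraries. In HFD Mof+/+ the order below Scd1 was Me1 (245 ± 33.2 TPM), Scd2 (208 ± 39.9 TPM) and Fasn (203 ± 30.5 TPM), which overlapped (n = 2).

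**Figure D2:**
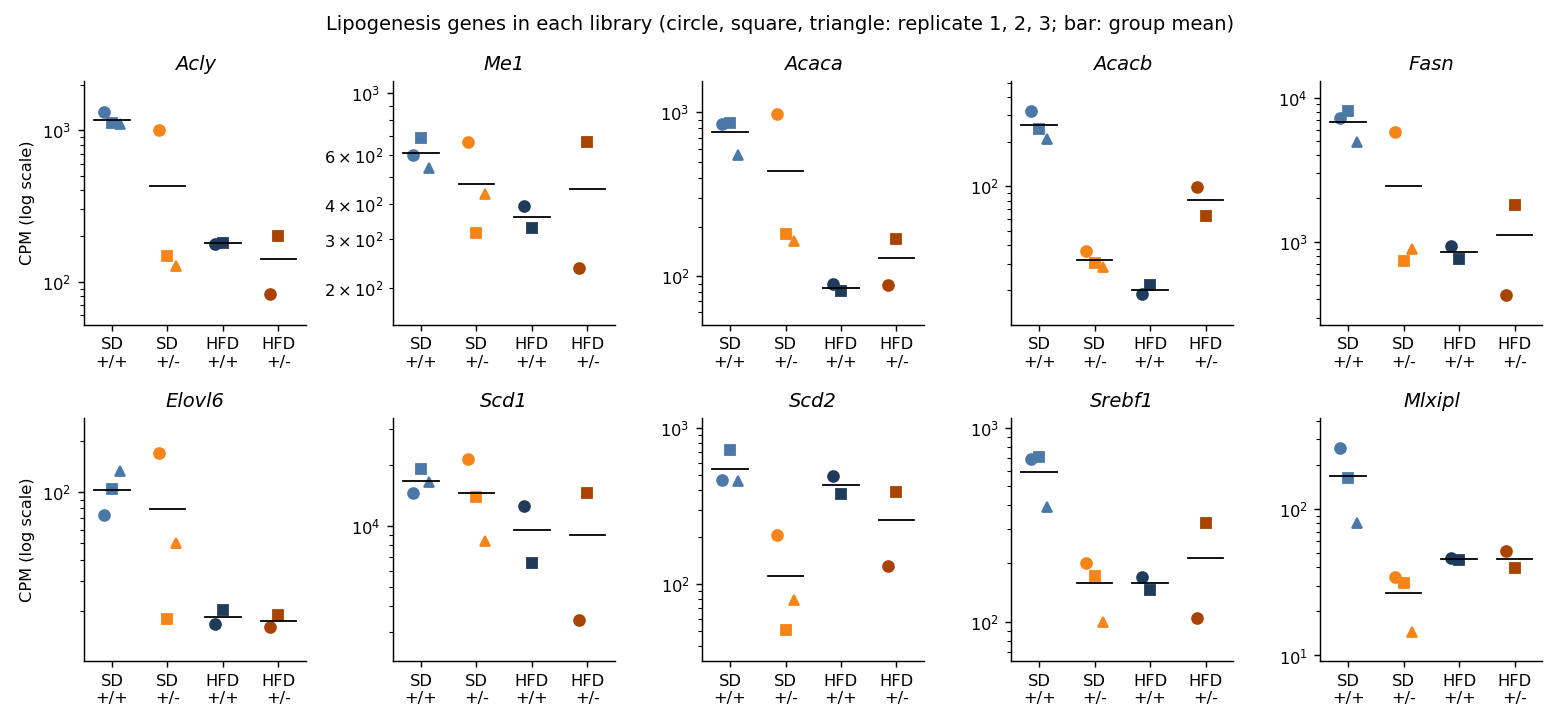
CPM on a log axis of each of the 10 genes in every library, by diet and genotype; circles, squares and triangles are replicates 1, 2 and 3 and the bar is the group mean. Acacb, Mlxipl, Srebf1, Scd2 and Acly lie lower in all SD Mof+/- libraries than in all SD Mof+/+ libraries, and Acacb lies higher in both HFD Mof+/- libraries than in both HFD Mof+/+ libraries.

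The comparison of genotypes on SD asked how the Mof+/- state bears on the pathway in young mice on standard diet. The genes lower in SD Mof+/- were the mitochondrial carboxylase Acacb and both transcription factors, Mlxipl and Srebf1. Thus 3 of the 10 genes were called lower and 0 higher at an adjusted p under 0.05 over all 13864 genes tested, of which 1.91% were called lower and 3.33% higher. In 5 of the 10, the SD Mof+/- libraries lay wholly below the SD Mof+/+ libraries, against 30.6% of all genes tested. The median log2 fold change of the 10 was -1.14, against -0.07 over all genes.

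Acacb (ENSMUSG00000042010.16, chr5:114146535-114250761, plus strand) stood at 320, 241 and 209 CPM in SD Mof+/+ and at 36.7, 30.5 and 28.6 CPM in SD Mof+/-. The groups did not overlap, and the lowest wild-type library lay far above the highest Mof+/- library. Its fitted fold was 6.29 lower in Mof+/- (log2 fold change -2.65, SE 0.26, adjusted p = 0.00482 by edgeR's quasi-likelihood test).

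Mlxipl (ENSMUSG00000005373.13, chr5:135089890-135138382, plus strand) was at 262, 162 and 80.7 CPM in SD Mof+/+ and at 34.1, 31.4 and 14.6 CPM in SD Mof+/-. The wild-type libraries spread widely, yet their lowest lay above the highest Mof+/- library. The gene fell by 2.32 on the log2 scale (SE 0.47, adjusted p = 0.0371, edgeR). Srebf1 (ENSMUSG00000020538.15, chr11:60199089-60222581, minus strand) was at 690, 704 and 390 CPM in SD Mof+/+ and at 201, 172 and 99.9 CPM in SD Mof+/-, again without overlap. It fell by 1.57 on the log2 scale (SE 0.34, adjusted p = 0.0404, edgeR).

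Among the enzymes of carbon supply and synthesis, SD Mof+/- replicate 1 parted from the other 2 Mof+/- libraries. Acly (ENSMUSG00000020917.17, chr11:100476353-100528000, minus strand) was at 1318, 1114 and 1091 CPM in SD Mof+/+. In SD Mof+/- it was at 1003, 147 and 128 CPM, so that only replicate 1 neared the wild-type level. Fasn (ENSMUSG00000025153.9, chr11:120805846-120824547, minus strand) was at 7203, 8128 and 4897 CPM in SD Mof+/+ and at 5732, 736 and 900 CPM in SD Mof+/-. Acaca (ENSMUSG00000020532.18, chr11:84129672-84401651, plus strand) was at 852, 861 and 552 CPM against 971, 180 and 163 CPM. For Acly and Fasn replicate 1 alone was near or inside the wild-type range, and for Acaca it alone lay above that range. Their log2 fold changes were -1.14 (SE 0.69) for Acly, -1.14 (SE 0.70) for Fasn and -0.46 (SE 0.62) for Acaca, with adjusted p of 0.337, 0.344 and 0.681 (edgeR).

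Elovl6 (ENSMUSG00000041220.10, chr3:129532355-129638495, plus strand) had a like split, with replicate 1 above the wild-type range, at 73.7, 104 and 132 CPM in SD Mof+/+ and 170, 18.0 and 50 CPM in SD Mof+/- (log2 fold change -0.03, SE 0.65). Me1 (ENSMUSG00000032418.15, chr9:86581371-86695953, minus strand) ranged from 539 to 689 CPM in SD Mof+/+ and from 315 to 664 CPM in SD Mof+/- (log2 fold change -0.01, SE 0.31). The desaturases differed from each other in their values. Scd2 (ENSMUSG00000025203.5, chr19:44293674-44306864, plus strand) was at 467, 727 and 456 CPM in SD Mof+/+ and at 207, 51.3 and 79.0 CPM in SD Mof+/-, with no overlap. Its log2 fold change of -1.95 (SE 0.49, adjusted p = 0.0530, edgeR) did not pass, but it did by DESeq2 (adjusted p = 5.90e-04), without a count filter (0.00154) and with at least 10 counts in every library (0.0280). Scd1 (ENSMUSG00000037071.2, chr19:44394455-44407879, minus strand) was at 14495, 19142 and 16403 CPM against 21365, 13884 and 8428 CPM (log2 fold change 0.14, SE 0.34), and its groups overlapped.

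Single libraries set how many genes were called, over all genes as among the 10. Without SD Mof+/- replicate 1, where 1026 of 14886 genes were called (354 lower), 7 of the 10 were, all lower, with Acly at -2.71, Fasn at -2.64, Scd2 at -2.67 and Acaca at -1.75 on the log2 scale added. Without SD Mof+/- replicate 2, where 17 of 14721 genes were called, 0 of the 10 passed and Acacb was at -2.59 (adjusted p = 0.0543). Of the 10, only Acacb was called without SD Mof+/- replicate 3 (-2.61), where 668 genes were called in all, and without SD Mof+/+ replicate 1 (-2.45) or 2 (-2.68), where 19 and 35 were. Without SD Mof+/+ replicate 3, Acacb and Mlxipl were called, with 74 genes in all. Grouped by column heading, 0 of the 10 passed and Acacb was at -1.08 (SE 0.87). In the fit of all 10 libraries Srebf1 was not called (-1.56, adjusted p = 0.0750). With a correction for exonic length, Acacb was at -2.12, Mlxipl at -2.08 and Srebf1 at -1.32, and all 3 were still called. Scaled to adipocyte markers, these 3 and Scd2 (log2 -2.94, adjusted p = 0.0192) were called lower, with Acacb at -3.80, Mlxipl at -3.41 and Srebf1 at -2.65. That scaling moved the median of all genes to -1.21 and turned the calls over all genes from 462 higher and 265 lower to 72 higher and 4464 lower.

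**Figure D3:**
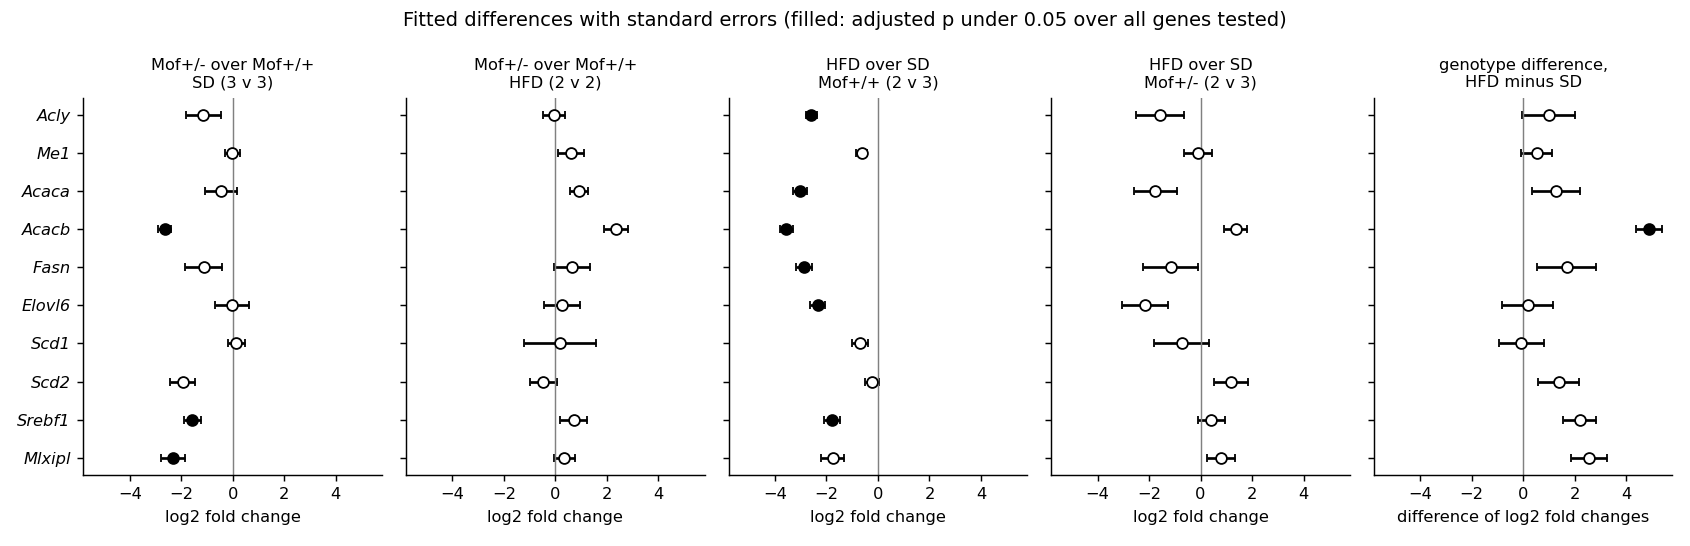
Fitted log2 fold changes with standard errors of the 10 genes in the 4 pairwise comparisons, and, at the right, the genotype difference on HFD minus that on SD; filled points have an adjusted p under 0.05 over all genes tested (edgeR). The 3 filled points on SD and the 6 in the comparison of diets in Mof+/+ lie below 0, and the 1 in the interaction, Acacb, lies above 0.

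The comparison of diets in Mof+/+ mice set 2 HFD libraries against 3 SD libraries, and here diet and age moved together. Acly, Acaca and Fasn, which lead from citrate to palmitate, stood lower on HFD, as did Acacb, Elovl6 and Srebf1. Thus 6 of the 10 genes were called lower and 0 higher. Over the 14939 genes tested, 3.73% were called lower and 6.02% higher. In 9 of the 10, both HFD libraries lay below all SD libraries, against 28.2% of all genes. The median log2 fold change of the 10 was -2.07, against -0.045 over all genes. This comparison shares its SD Mof+/+ libraries with the genotype comparison on SD, so the values of both rest in part on the same libraries.

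The largest fall among the 10 was that of Acacb, from 209 to 320 CPM on SD to 18.6 and 21.5 CPM on HFD, 11.7 times lower in the fit (log2 fold change -3.55, SE 0.27, adjusted p = 0.00301 by edgeR). Acaca stood at 89.0 and 80.7 CPM on HFD and fell by 3.03 (SE 0.28, adjusted p = 0.00356). Fasn stood at 935 and 765 CPM and fell by 2.87 (SE 0.31, adjusted p = 0.00559). Both carboxylases and the synthase thus lay 7.30 to 11.7 times lower. Acly, which feeds them, was at 178 and 181 CPM and fell by 2.59 on the log2 scale (SE 0.21, adjusted p = 0.00303). Elovl6 was at 16.9 and 20.3 CPM and fell by 2.35 (SE 0.29, adjusted p = 0.00829). Srebf1 was at 171 and 146 CPM and fell by 1.79 (SE 0.31, adjusted p = 0.0202).

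The members that did not pass by edgeR were Mlxipl, Me1 and the desaturases, of which DESeq2 called Mlxipl (adjusted p = 0.00126) and Me1 (0.00742). Mlxipl was at 46.0 and 45.0 CPM, below all SD libraries (log2 fold change -1.77, SE 0.46, adjusted p = 0.0577), and passed without a count filter (0.0214) and with at least 10 counts in every library (0.0299). Me1 was at 392 and 327 CPM (log2 fold change -0.64, SE 0.21, adjusted p = 0.0980) and Scd1 at 12525 and 6551 CPM (-0.69, SE 0.32, adjusted p = 0.208), both without overlap with SD. Scd2, at 491 and 378 CPM, was the member whose groups overlapped (-0.22, SE 0.28, adjusted p = 0.651).

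Without HFD Mof+/+ replicate 2, where 64 of 16649 genes were called against 1457 of 14939 with it, 2 of the 10 were (Acacb at -3.65 and Acly at -2.59). In a single fit of all 10 libraries, which takes its spread from every group and called 142 genes, only Acacb was (-3.57, adjusted p = 0.00329). Grouped by column heading, 0 were called and Acacb was at -3.20 (adjusted p = 0.336). All 6 calls held with the correction for exonic length, with log2 fold changes of -3.27 to -1.69. Macrophage markers (7 of 7 detected) summed to 856 to 1547 CPM in SD Mof+/+ and to 3995 and 5093 CPM in HFD Mof+/+, and their part in the falls was not tested. Scaled to adipocyte markers, 6 of the 10 were again called, with Acacb at -3.37, while the calls over all genes went from 900 higher and 557 lower to 794 higher and 251 lower.

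The comparison of genotypes on HFD, 2 against 2, called 0 of the 10 genes, as it called 0.0% of the 14120 tested. At an unadjusted p under 0.05 there was 1 member, Acacb, against 12.3% of all genes. DESeq2 called 209 genes, of the 10 Acacb alone (adjusted p = 0.0467). Acacb was at 18.6 and 21.5 CPM in HFD Mof+/+ and at 98.6 and 62.9 CPM in HFD Mof+/-. It was thus higher in both Mof+/- libraries, the opposite of SD, and was the 1 member of 10 without overlap in that direction, against 8.82% of all genes. Its fitted log2 fold change was 2.37 (SE 0.47, adjusted p = 0.278 by edgeR's quasi-likelihood test). The first value rests on 103 counts, with a 95% exact binomial (Clopper-Pearson) interval of 80.5 to 120 CPM, which covers counting error only. Without that library Acacb was at 1.82 (adjusted p = 1.08e-04), but the remaining HFD Mof+/- library also held muscle markers (1644 CPM, against 29.5 and 28.7 CPM in HFD Mof+/+). Macrophage markers summed to 3995 and 5093 CPM in HFD Mof+/+ and to 1130 (Adgre1 at 0) and 1978 CPM in HFD Mof+/-. Brown adipocyte markers summed to 33.6 and 37.7 CPM in HFD Mof+/+ and to 1137 and 353 CPM in HFD Mof+/-. Most of the Mof+/- sums came from Cox8b (650 and 244 CPM) and Cox7a1 (370 and 38.1 CPM). Cidea was at 35.4 and 60.4 CPM, Ucp1 at 81.4 and 3.6 CPM and Ppargc1a at 0 and 6.51 CPM. The part of these lists in the Acacb difference was not tested.

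In each of the other members the HFD Mof+/- and Mof+/+ values overlapped. Fasn was at 428 and 1803 CPM, Scd1 at 3418 and 14595 CPM, Scd2 at 130 and 387 CPM, and Me1 at 237 and 667 CPM in HFD Mof+/-. In each of these, replicate 1 was the lower library. Srebf1 was at 104 and 324 CPM and Acly at 83.3 and 199 CPM, with the same order. Acaca was at 88.1 and 169 CPM, Elovl6 at 16.3 and 19.0 CPM and Mlxipl at 51.7 and 39.6 CPM. The Elovl6 value in replicate 1 rests on 17 counts, with an exact interval of 9.48 to 26.1 CPM. The replicate 1 values are shares of a library in which muscle markers hold 6.32% and mitochondrially encoded genes 26.9% of counts.

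The calls among the members on HFD went with the library left out. Without HFD Mof+/- replicate 1, where 1625 of 15932 genes were called higher and 2701 lower, 5 of the 10 were called, all higher in Mof+/-, namely Acacb, Acaca (log2 1.17), Fasn (1.25), Srebf1 (1.20) and Me1 (1.06). Without HFD Mof+/- replicate 2, where 7551 of 15761 genes were called, 4 of the 10 were, with Acacb higher (2.69) and Scd2 (-1.35), Scd1 (-1.09) and Acly (-0.71) lower. Acacb was the member with the same direction and a call in both. Each of these fits leaves 1 Mof+/- library, whose spread is taken to be that of the 2 wild-type libraries.

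The comparison of diets in Mof+/- mice, 2 HFD against 3 SD libraries, called 0 of the 10 genes, as it called 0.0% of the 13610 tested. At an unadjusted p under 0.05 there were 2 members, Acacb and Elovl6, against 8.57% of all genes. DESeq2 called 402 genes, 0 of them among the 10. Acacb went from 28.6 to 36.7 CPM on SD to 62.9 and 98.6 CPM on HFD (log2 fold change 1.36, SE 0.45, adjusted p = 0.473, edgeR), and was at 0.19 when grouped by column heading and at 2.75 (adjusted p = 0.0923) when scaled to adipocyte markers, which moved the median of all genes from -0.26 to 0.77. Mlxipl went from 14.6 to 34.1 CPM to 39.6 and 51.7 CPM (log2 fold change 0.81, SE 0.54, adjusted p = 0.734, and 2.09 with that scaling). These 2 genes lay higher on HFD without overlap, against 9.88% of all genes, and 0 lay lower without overlap, against 17.7%. Elovl6 had a log2 fold change of -2.15 (SE 0.90, adjusted p = 0.570, edgeR), with an HFD library at 19.0 CPM just above the lowest SD library at 18.0 CPM. The remaining fold changes were -1.75 for Acaca, -1.58 for Acly, -1.16 for Fasn, -0.73 for Scd1, -0.10 for Me1, 0.42 for Srebf1 and 1.18 for Scd2, with SEs of 0.52 to 1.07. Without SD Mof+/- replicate 1, Acaca was at -0.46, Acly at -0.01, Fasn at 0.35 and Elovl6 at -1.0. By column heading, Mlxipl was at 0.19 and Scd2 at 0.37, and the groups of both Acacb and Mlxipl overlapped.

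The interaction, the genotype difference on HFD minus that on SD, was fitted over all 10 libraries. Acacb was the 1 member of 10 called, and 0.0252% of the 15897 genes tested were called in the same direction (4 genes). Its genotype difference was 4.90 higher on HFD than on SD on the log2 scale (SE 0.51, adjusted p = 0.00412, edgeR). It was 4.46 (adjusted p = 0.00156) without HFD Mof+/- replicate 1 and 5.28 (adjusted p = 4.79e-04) without replicate 2, fits in which the lone HFD Mof+/- library is assumed to vary like the other groups. Without HFD Mof+/+ replicate 1 or 2 the value was 4.84 or 5.06, with adjusted p of 0.0512 and 0.0514. Grouped by column heading it was 3.35 (SE 1.23, adjusted p = 0.530), and with the correction for exonic length 4.99 (adjusted p = 0.00901).

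The transcription factors came next by size. Mlxipl had an interaction of 2.55 (SE 0.71, adjusted p = 0.207) and Srebf1 of 2.20 (SE 0.64, adjusted p = 0.224), neither called by edgeR and both called by DESeq2 (adjusted p = 0.0192 and 0.0182). By column heading they were 1.73 and 1.5. The other 7 members ranged from -0.06 (Scd1) to 1.69 (Fasn), with SEs of 0.60 to 1.15. The median of the 10 was 1.33, against -0.41 over all genes.

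The 2 carboxylases can be compared within a library, where the total count cancels but the mix of tissues does not. The TPM ratio of Acacb to Acaca was 0.666, 0.497 and 0.671 in SD Mof+/+ and 0.0671, 0.30 and 0.310 in SD Mof+/-. It was 0.371 and 0.472 in HFD Mof+/+ and 1.98 and 0.658 in HFD Mof+/-. The ratio was lower in every Mof+/- library than in every Mof+/+ library on SD, and higher on HFD. The SD ratios overlapped when grouped by column heading. Acacb was below Acaca in 9 of the 10 libraries, the exception being HFD Mof+/- replicate 1. Skeletal muscle markers summed to 63211 CPM in that library and to 1644 CPM in HFD Mof+/- replicate 2. Their part in the ratios was not tested. Fasn over Acly stayed between 2.04 and 4.37 in all 10 libraries, while Scd1 over Scd2 ran from 19.3 in HFD Mof+/+ replicate 2 to 302 in SD Mof+/- replicate 2. With the longest transcript in place of all exons, which scales the ratio alike in every library, Acacb over Acaca was 0.304 to 0.410 in SD Mof+/+.

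**Figure D4:**
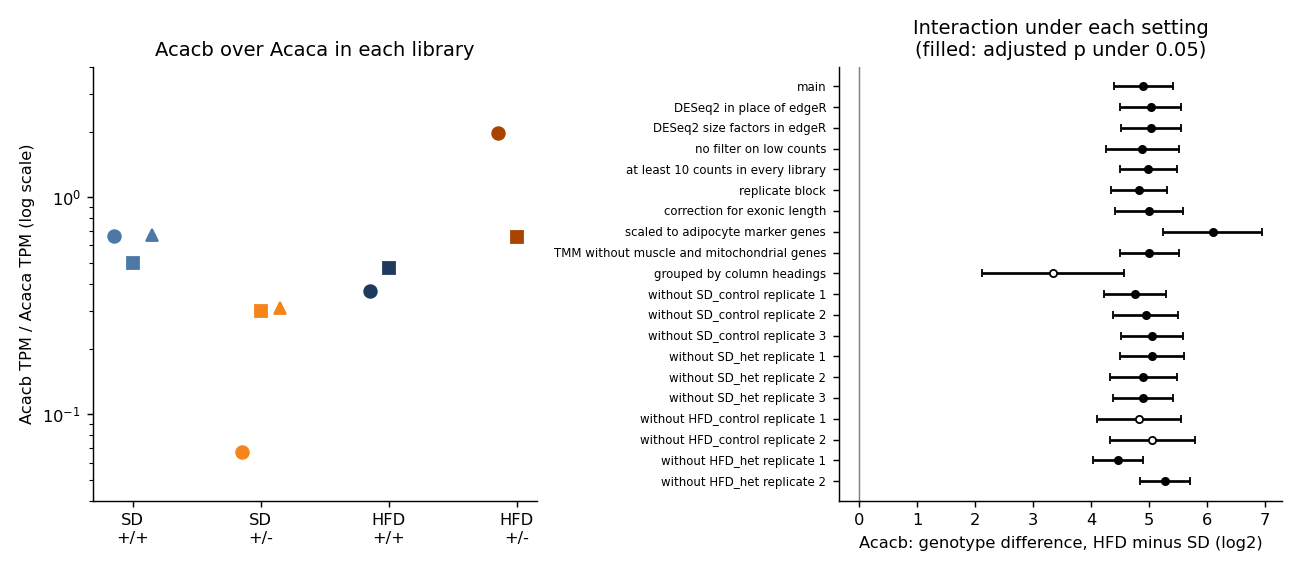
Left, TPM of Acacb over TPM of Acaca on a log axis in each library (circle, square and triangle for replicates 1, 2 and 3), which is 0.497 to 0.671 in SD Mof+/+ and 0.0671 to 0.310 in SD Mof+/-. Right, the Acacb interaction (genotype difference on HFD minus that on SD, log2, with its standard error) under the reported fit and each alternative; open points, with an adjusted p of 0.05 or above, are the grouping by column heading and the fits without either HFD Mof+/+ library.

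Over the 10 libraries, the members did not form a single block. Pearson's r of log2 CPM was 0.977 for Fasn with Acly, 0.949 for Fasn with Acaca and 0.935 for Acaca with Acly. At the other end it was 0.226 for Scd1 with Acacb and 0.271 for Scd1 with Mlxipl. These correlations are over 10 libraries of 4 groups, and are given as a description, since the libraries share group, depth and composition. The members' mean Z-score was 0.790 to 1.18 in SD Mof+/+, 0.532, -0.720 and -0.743 in SD Mof+/-, -0.463 and -0.674 in HFD Mof+/+, and -1.01 and 0.014 in HFD Mof+/-. The 10 non-member genes nearest to that score among 11299 compared were Mast4, Aacs, Rab11fip3, Peg13, Lamb2, Hipk3, Amigo2, Ubtf, Xrn1 and Hectd4 (r of 0.966 down to 0.933). They are 3163 to 32326 exonic bases long with a median of 6743.5, against a median of 4528.5 over the genes compared, and by Spearman's rho only Hectd4 stayed among the nearest 10.

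The wider pathway was read from 5 lists with 57 genes in all, which leave out the 10 members. In the genotype comparison on SD, 4 of them were called, while 1.91% of all genes tested were called lower and 3.33% higher. In the list of other SREBP1 or ChREBP targets, 3 of 9 tested genes were lower and 0 higher. They included Pnpla3, the gene of a lipid droplet protein (-2.10, SE 0.31, adjusted p = 0.0222, edgeR), and Aacs, the acetoacetyl-CoA synthetase of the cytosol (-2.26, SE 0.40, adjusted p = 0.0306). The other was Mid1ip1, a partner that activates acetyl-CoA carboxylase (-1.44, SE 0.32, adjusted p = 0.0436). Mid1ip1 lay outside the rule for naming and was named after its value was seen. Aacs was at 571, 548 and 347 CPM in SD Mof+/+ and at 126, 76.1 and 40.6 CPM in SD Mof+/-, and Pnpla3 at 1080, 1091 and 729 CPM against 205, 128 and 193 CPM. Both genes kept the groups apart in all 6 libraries.

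In the list of elongation, desaturation and activation, 1 of 12 tested was higher and 0 lower. That gene was Acsl1, which activates long-chain fatty acids, at 481, 598 and 563 CPM in SD Mof+/+ and 1919, 2076 and 898 CPM in SD Mof+/- (1.91, SE 0.33, adjusted p = 0.0290). Fads2 (-1.21), Elovl5 (-0.83) and Tecr (0.84) did not pass. The lists of carbon and NADPH supply (0 of 10), regulators of SREBP1 and ChREBP (0 of 13) and the malonyl-CoA brake with AMP kinase (0 of 9) held no call on SD. In them, G6pdx, which makes NADPH, was at 0.91 (SE 0.35), Mdh1 at 0.64, Cs at -0.26 and Slc25a1 at -0.12. Among the regulators, Mlxip, a paralog of Mlxipl, was at -1.40 (SE 0.40, adjusted p = 0.0743) and Insig1, which retains SREBP in the endoplasmic reticulum, at -1.20 (SE 0.40), with Nr1h3 at 0.70 and Insig2 at 0.79. In the brake list Trib3 was at 1.11, Mlycd at 0.51, Prkab1 at -0.91 and Prkaa2 at -0.96. Median log2 fold changes of the 5 lists were 0.20 (carbon and NADPH supply), -0.34 (elongation), -0.35 (regulators), -0.315 (other targets) and 0.24 (brake), against -0.07 over all genes. Without SD Mof+/+ replicate 1 or 2 or SD Mof+/- replicate 2, or grouped by heading, 0 of the wider genes were called. Those fits called 19, 35, 17 and 0 of all genes. Without SD Mof+/+ replicate 3 there was 1, where 74 of all genes were called. Scaled to adipocyte markers 26 were, where 4536 of 13864 genes were called.

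In the comparison of diets in Mof+/+, 12 of the wider genes were called, 10 lower and 2 higher. Of all genes tested, 3.73% were called lower and 6.02% higher. Among the other targets 5 of 9 fell and 0 rose. They included Aacs (-2.87, SE 0.31, adjusted p = 0.00559) and Thrsp, the gene of a lipogenic protein in fat and liver (-2.48, SE 0.29, adjusted p = 0.00682), at 1742, 1346 and 1265 CPM on SD and 292 and 185 CPM on HFD. Gpam, the first enzyme of glycerolipid synthesis (-4.12), Pnpla3 (-2.24) and Mid1ip1 (-1.49) were the others, named after their values were seen. In the carbon and NADPH list 2 of 10 fell, Pcx, which refills oxaloacetate (-1.59, SE 0.28, adjusted p = 0.0201), and Tkt of the pentose phosphate route (-1.37, SE 0.21, adjusted p = 0.0138), and 0 rose. G6pdx (0.36) and Pgd (0.09) did not pass.

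In the elongation list 2 of 12 fell and 1 rose. The desaturase Fads2, low throughout at 19.0 to 34.7 CPM on SD and 3.10 and 2.69 CPM on HFD, fell by 3.10 (SE 0.40, adjusted p = 0.00904), and Fads1 fell by 1.02 (adjusted p = 0.0495). Elovl1, which lengthens very long chains, rose by 1.04 (SE 0.19, adjusted p = 0.0241), and Hsd17b12 at 0.68 did not pass. Among 13 regulators 1 fell, the phosphatidate phosphatase and coregulator Lpin1 (-1.32, SE 0.23, adjusted p = 0.0211), with Nr1h3 at 0.58, Insig1 at 0.55 and Mbtps1 at -0.51. In the brake list 1 of 9 rose, Cpt1a, the transferase that malonyl-CoA inhibits (1.09, SE 0.22, adjusted p = 0.0304), at 58.2 to 87.4 CPM on SD and 122 and 147 CPM on HFD. Prkaa1 (-0.96), Prkaa2 (-2.07) and Stk11 (0.46) did not pass. List medians were -0.40 (carbon), -0.44 (elongation), 0.02 (regulators), -1.49 (other targets) and 0.07 (brake), against -0.045 over all genes. Over all genes, 250 were called without SD Mof+/+ replicate 1, 142 in the fit of all 10 libraries and 0 when grouped by heading. Without HFD Mof+/+ replicate 2 or grouped by heading 0 of the wider genes were called, without HFD Mof+/+ replicate 1 there were 4, without SD Mof+/+ replicate 1 there were 3, and in the fit of all 10 libraries there was 1.

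**Figure D5:**
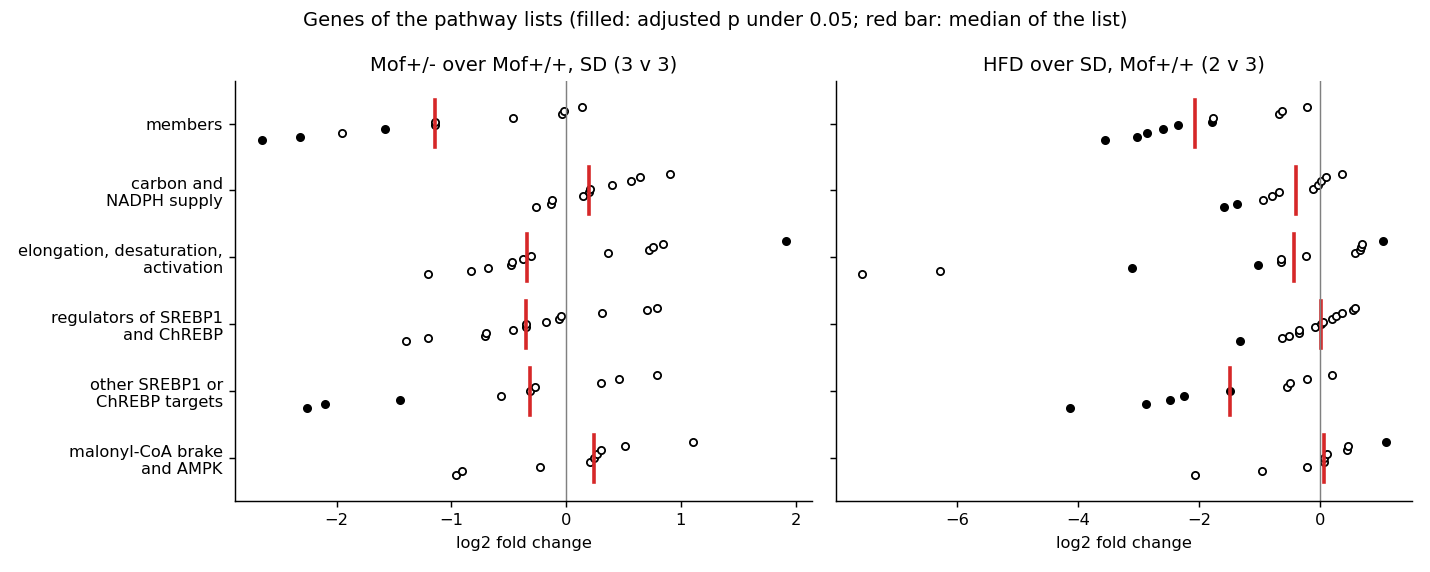
Log2 fold changes of the 10 members and of the genes tested in each of the 5 wider lists, for Mof+/- over Mof+/+ on SD and for HFD over SD in Mof+/+; filled points have an adjusted p under 0.05 over all genes tested (edgeR) and the red bar is the list's median. The members (-1.14 and -2.07) have the lowest medians in both panels, and the other targets (-1.49) come next in the comparison of diets.

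The remaining comparisons called 0 of the wider genes by edgeR. In the genotype comparison on HFD 2 had an unadjusted p under 0.05 by edgeR, against 12.3% of all genes tested. They were G6pdx (-0.79, adjusted p = 0.405) and Mlycd, which removes malonyl-CoA (1.06, adjusted p = 0.303), and DESeq2 called 0. For diets in Mof+/- 5 had an unadjusted p under 0.05, against 8.57% of all genes tested. Among them were Fads2 (-4.59), Gpam (-4.47), Fads1 (-1.31) and G6pdx (-1.42), with adjusted p of 0.473 to 0.495, and DESeq2 called 1. Fads2 was at 0 and 0.542 CPM and Gpam at 0 and 13 CPM in HFD Mof+/-, with no count in replicate 1. In the interaction 9 of the wider genes did, against 1969 of all 15897 genes, led by Aacs (2.97, SE 0.71, adjusted p = 0.152) and Pnpla3 (2.62, SE 0.63, adjusted p = 0.156), and DESeq2 called 3. Without HFD Mof+/- replicate 1 or 2, respectively, 17 and 26 of the wider genes were called between genotypes on HFD, in fits that called 4326 of 15932 and 7551 of 15761 genes.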

How the data were processed

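WAT polyA RNA of 10 samples was sequenced on a NovaSeq from an unstranded TruSeq kit. The deposited values are raw counts of reads per gene, which the authors made with STAR (GRCm38/mm10) and featureCounts of Subread 1.5.0-p1, per the labels; the annotation release is not given in the sources used here. Samples were grouped by their labels. The 10 genes and all lists were chosen with earlier results of these data known. Identifiers were matched without version (47224 of 47937). Coordinates and exonic lengths came from GENCODE M21 and promoters from RefSeq. CPM is counts over the library total, TPM also over exonic length.

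Each comparison was fitted by edgeR 4.0.16 (TMM, filterByExpr, quasi-likelihood test, Benjamini-Hochberg over all genes tested, threshold 0.05) on the groups compared, and the interaction over all 10 libraries. SEs were derived from the F statistic. The edgeR step was tested on simulated data. Alternatives were DESeq2 1.42.0, its size factors in edgeR, other count filters, a replicate block, a joint fit, an exonic length correction, scaling to adipocyte markers, TMM without muscle and mitochondrial genes, grouping by column heading, and leaving out each library. Named beside the 10 genes were, per list and comparison, up to 2 genes each way by p with a mean of at least 50 counts, and the 10 genes most correlated with the members' mean Z-score. Unlike the study's DESeq2 1.26, edgeR gave the reported values. Each group serves 2 pairwise comparisons. Intervals cover counting error only.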

Additional observations from a re-analysis of the deposited data

Results flagged for a closer look

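Acacb was flagged because its genotype effect differed between diets by a test of the difference itself, the interaction of 4.90 (log2, SE 0.51, adjusted p = 0.00412 by edgeR's quasi-likelihood test). It was lower in 3 of 3 Mof+/- libraries on SD and higher in 2 of 2 on HFD than in every Mof+/+ library of the same diet. The 3 SD Mof+/- libraries are also the ones with Xist and without Y-linked counts, which cannot be told apart from genotype here. The 2 HFD Mof+/- libraries are the ones with skeletal muscle markers above 89.5 CPM (63211 and 1644 CPM, with Acacb at 98.6 and 62.9 CPM). Brown adipocyte markers were also highest in them (1137 and 353 CPM, against at most 82.9 CPM elsewhere). Most of that came from Cox8b and Cox7a1, with Ucp1 at 81.4 and 3.6 CPM. Macrophage markers were lower in them than in both HFD Mof+/+ libraries. The part of these marker lists in the result was not tested.

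Mlxipl was flagged because every HFD library lay below every SD library in Mof+/+ and above every SD library in Mof+/-. Of all genes tested, 28.2% lay lower on HFD without overlap in Mof+/+ and 9.88% lay higher in Mof+/-. The SD Mof+/- libraries held Xist and no Y-linked counts, unlike the HFD Mof+/- libraries. Diet in Mof+/- thus cannot be told apart from sex or age. The Mof+/- libraries overlapped when grouped by column heading. Its interaction of 2.55 (SE 0.71, adjusted p = 0.207, edgeR) did not pass. The adjusted p over its alternatives ran from 0.0168 (no filter on low counts) to 0.804 (without HFD Mof+/+ replicate 2).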

How the results depend on the processing

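None of the members' reported calls changed direction under any alternative run. Leaving out 1 library each, the number of the 10 genes called ranged over 0 to 7 (genotype on SD), 0 to 5 (genotype on HFD), 2 to 7 (diets in Mof+/+), 0 to 1 (diets in Mof+/-) and 0 to 2 (interaction), and of the wider genes over 0 to 4, 0 to 26, 0 to 16, 0 to 8 and 0 to 14. In the same order of comparisons, the calls over all genes were 727, 0, 1457, 0 and 14 by edgeR and 2211, 209, 2990, 402 and 490 by DESeq2. DESeq2 called 4 members for genotype on SD (edgeR 3), 8 for diets in Mof+/+ (edgeR 6), 1 for genotype on HFD and 3 in the interaction, and 11 (genotype on SD), 24 (diets in Mof+/+), 1 (diets in Mof+/-) and 3 (interaction) of the wider genes. The fit of all 10 libraries called 194 and 142 of all genes for genotype on SD and diets in Mof+/+, with 2 and 1 of the wider genes, and 2 and 1 members. Without a filter on low counts, 1 member was called for diets in Mof+/- and 3 in the interaction, with 1 and 2 of the wider genes. Those fits called 429 of 20454 and 380 of 23421 genes. Scaled to adipocyte markers, 26 of the wider genes were called for genotype on SD, where 4536 of 13864 genes were called. Grouped by column heading, 0 members and 0 wider genes were called for genotype on SD, diets in Mof+/+ and the interaction, and 0 of all genes. By Spearman's rho, 1 of the 10 nearest genes was shared.

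Replicate numbers are shared between groups, but same-numbered samples did not deviate together (correlations of -0.043 to 0.032), so they share only a number. With the replicate block, all genes called were 428, 200, 1688, 260 and 10. Members called were 3 for genotype on SD and 7 for diets in Mof+/+, adding Mlxipl (-2.07, adjusted p = 0.00668), and 1 wider gene was called for diets in Mof+/-.

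Log2 fold changes that were not called as reported, and changed sign under an alternative, were the following. For genotype on SD they were Me1 without filter (0.008) and with length correction (0.003), Acaca with length correction (0.001) and by heading (0.005), Elovl6 without filter (0.004), with length correction (0.249) and by heading (0.544), and Scd1 scaled to adipocyte markers (-0.904). On HFD they were Acly with length correction (0.402) and Scd1 with the replicate block (-0.026) and adipocyte scaling (-0.35). For diets they were Scd2 by heading in Mof+/+ (0.115), and in Mof+/- Me1 with length correction (0.174) and adipocyte scaling (0.838), Scd1 with adipocyte scaling (0.049) and Srebf1 by heading (-0.053). In the interaction they were Acly (-0.062) and Elovl6 (-0.396) by heading, and Scd1 with DESeq2 or its size factors (0.04), at least 10 counts or TMM without muscle and mitochondrial genes (0.025), length correction (0.107) and adipocyte scaling (0.554). Leaving out 1 library, such ranges were -0.294 to 0.235 (Me1), -1.179 to 0.455 (Elovl6) and -0.206 to 0.398 (Scd1) for genotype on SD. On HFD they were -0.712 to 0.322 (Acly), -0.212 to 1.06 (Me1), -0.597 to 1.253 (Fasn), -1.088 to 0.782 (Scd1), -1.345 to 0.001 (Scd2), -0.209 to 1.202 (Srebf1) and -0.032 to 0.577 (Mlxipl), where the values of Scd1 (-1.088, adjusted p = 0.0414), Scd2 (-1.345) and Acly (-0.712) without HFD Mof+/- replicate 2 and those of Me1, Fasn and Srebf1 (1.06 to 1.253) without replicate 1 were themselves called by edgeR. For diets they were -0.39 to 0.046 (Scd2) in Mof+/+, and -0.892 to 0.383 (Me1), -2.393 to 0.349 (Fasn) and -0.482 to 0.932 (Srebf1) in Mof+/-. In the interaction they were -0.267 to 1.064 (Me1), -0.257 to 1.38 (Elovl6) and -1.304 to 0.626 (Scd1). The cause of these changes was not tested. HFD Mof+/- replicate 1, with 1044355 counts, enters the comparisons on HFD and in Mof+/-, and how far its depth limits them was not tested.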
